A study of Caenorhabditis elegans with 4 samples.

Results

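Peaks of LIN-15B binding whose summits lie in the coding exons of autosomal genes, away from promoters, were examined in Caenorhabditis elegans L4 larvae. A pooled peak was a member when its summit, the base of highest signal, fell on a chromosome other than X and the mitochondrial DNA, inside annotated coding sequence, and not between 500 bp upstream and 100 bp downstream of the start of any protein-coding transcript. Of 8636 pooled peaks, 7135 were autosomal and 1293 of these were members, 18.1% of the autosomal peaks. Each summit was assigned to 1 host gene, although another gene overlaps some of them, and the members were spread over 1187 host genes. The 1293 peaks are all 340 bp wide, and 107 of their summits (8.28%) also lie in an intron, an untranslated exon or a non-coding exon of another transcript.

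All samples are whole larvae of strain OP184, of genotype unc-119(tm4063) III with the integrated transgene wgIs184, with males and females pooled. The transgene carries LIN-15B with a GFP-FLAG tag at its C-terminus, and the promoter that drives it is not named in the labels. The 4 samples form 1 group of 3 biological replicates. Replicate 3 has 2 technical libraries that share 1 peak list and was counted once, and the labels give a fragment size range of 150 to 350 bp for replicates 1 and 2 and microtip sonication for replicate 3. The antibody is labelled only as lin-15B, while the sample descriptions name eGFP-lin-15B as the target. No second condition and no untagged sample was analysed here, although each list was called by the authors against a control alignment. Whole larvae were used, so a site bound in a few cells and a site bound weakly in many cannot be told apart.

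LIN-15B is a nuclear protein of the synMuv B class, a group of chromatin regulators named for the extra vulvae that form when they are lost together with a gene of a second class. It is known for helping to keep germline genes silent in somatic tissues of the worm, and for sitting mainly at promoters together with the repressive DREAM complex. Coding exons carry the protein sequence and are crossed by RNA polymerase when a gene is transcribed.

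The sequences at the summits show what kind of site is counted. The windows below reach 50 bp to each side of the summit and are written on the coding strand of the host gene from the WBcel235 reference (RefSeq, ce11 coordinates), with coding bases in capitals and intron bases in lower case. The first 3 are the members that are themselves on the authors' list of reproducible peaks, W06H8.6 overlaps such a peak, and the others are high-scoring members of chromosomes II, III and V that show an exon edge or an exon interior.
glr-2, chrIII:7141543-7141643, minus strand: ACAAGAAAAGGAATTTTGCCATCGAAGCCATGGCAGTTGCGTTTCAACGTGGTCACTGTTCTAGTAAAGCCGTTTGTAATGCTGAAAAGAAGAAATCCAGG
stdh-1, chrV:13907785-13907885, plus strand: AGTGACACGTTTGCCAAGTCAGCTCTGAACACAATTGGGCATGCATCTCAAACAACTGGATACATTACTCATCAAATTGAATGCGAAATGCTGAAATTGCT
F58G1.7, chrII:12944602-12944702, minus strand: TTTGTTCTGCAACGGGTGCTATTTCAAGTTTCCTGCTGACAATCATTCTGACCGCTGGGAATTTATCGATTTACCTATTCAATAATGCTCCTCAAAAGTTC
W06H8.6, chrV:6224823-6224923, minus strand: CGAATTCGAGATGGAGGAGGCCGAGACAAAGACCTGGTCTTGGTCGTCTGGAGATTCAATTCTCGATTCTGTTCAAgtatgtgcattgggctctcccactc
C36E8.4, chrIII:4015473-4015573, plus strand: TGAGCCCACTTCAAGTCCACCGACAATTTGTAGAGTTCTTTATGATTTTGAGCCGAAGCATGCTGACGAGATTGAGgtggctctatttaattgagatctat
lys-1, chrV:10278527-10278627, plus strand: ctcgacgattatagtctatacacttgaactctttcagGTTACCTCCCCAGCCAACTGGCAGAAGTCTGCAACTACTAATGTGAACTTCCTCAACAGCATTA
unc-104, chrII:6996817-6996917, plus strand: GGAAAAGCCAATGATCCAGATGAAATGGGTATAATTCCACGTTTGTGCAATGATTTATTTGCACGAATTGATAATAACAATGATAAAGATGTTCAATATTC
In these windows a script searched both strands for 10 short motifs. The first 3 windows held no TTTGAA (the core of the cell cycle homology region bound by DREAM), no E2F element (TTNNCGC with each N being C or G), no GAGAGA and no TGATAA, and of the 7 windows only unc-104 held TGATAA. The window of glr-2 held GAAGAA and its G+C content was 42.6%, against 40.6% for stdh-1 and 39.6% for F58G1.7. These matches are letters in the window and not measured sites.

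The member with the highest score lay in glr-2, which encodes a glutamate receptor subunit, at chrIII:7141423-7141762. Scores are the authors' signal values, which rank peaks within a list and share no scale between lists. In glr-2 the pooled score was 35.6, and the replicate peaks over the summit scored 7.67, 10.1 and 16.1 in replicates 1, 2 and 3, where they ranked 1361, 1245 and 224 of 30000. The summit is in coding exon 12 of 20, 50.2% of the way along the coding sequence, and the non-coding RNA gene B0280.22 lies over it on the opposite strand. The next, in the last of 4 coding exons of stdh-1, a steroid dehydrogenase family gene, had a pooled score of 35.6 at chrV:13907665-13908004. Its replicate peaks scored 7.16, 15.002 and 16.6 and ranked 1833, 246 and 213. F58G1.7 followed with 29.3 at chrII:12944482-12944821, in coding exon 6 of 7, with replicate ranks of 3162, 175 and 474. In these 3 members the peak ranked lowest in replicate 1.

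Only these 3 members were themselves optimal peaks, the name of the list that passed the authors' test of irreproducible discovery rate (IDR) between replicates. Another, in W06H8.6, overlapped an optimal peak of score 33.7 whose own summit was in an intron 218 bp away. With an overlap of at least 1 bp, 4 of 1293 members were past the threshold, 0.309% (95% Wilson interval 0.120 to 0.793). Over all autosomal pooled peaks the share past the threshold was 4.92%, so coding exon peaks were below the background. Among the other classes it was 13.9% for peaks in the promoter window, 1.86% in untranslated exons, 0.822% in introns and 2.91% between protein-coding genes. Introns and untranslated exons were those of protein-coding transcripts only. The class between protein-coding genes, also called intergenic below, therefore includes non-coding genes that lie outside such transcripts. The lowest score on the optimal list was 28.9, and F58G1.7 lay just inside it at pooled rank 375. The next member by score was Y49A3A.3 at 26.1, with pooled rank 477.

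Below the threshold the highest-scoring members were a mixed set of genes. Y49A3A.3 (26.1), dos-3 (25.8), which encodes a DOS-motif ligand of the Notch pathway, F42C5.9 (24.8), C36E8.4 (24.5) and the lysozyme gene lys-1 (24.0) came next. They were followed by F59B8.1, Y43B11AR.3, the chemoreceptor gene srt-47, K03B4.1, pigq-1 of glycolipid anchor synthesis, the kinesin gene unc-104, T19D12.6, the lysozyme gene lys-2, the large subunit gene rpl-7, the ribosomal stalk gene rla-1, scl-26 and gtbp-1, with scores from 23.8 down to 22.5. The summits of the 2 lysozyme genes lie close together on chromosome V, at 10278577 and 10280677. Of the 20 highest members, 10 were in internal coding exons, 5 in the first coding exon and 5 in the last, and 7 lay within 250 bp downstream of the nearest start, just beyond the promoter window. Of all members 72.5% were in internal, 7.89% in first and 19.2% in last coding exons, and 9.51% lay in that stretch downstream of a start. A pooled peak stood in the promoter window of the host gene for 4 of the 20, and 1 of these, at rpl-7, was optimal. Of all members, 13.5% had a pooled but no optimal peak in that window and 2.40% an optimal one.

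Even these strongest members were uneven between replicates. A summit counts as recovered when it lies inside 1 of the 8636 highest-scoring peaks of a replicate list, as many as the pooled list holds. By this measure 7 of the 20 were recovered in all 3 replicates, 11 in 2 and 2 in 1. In F42C5.9 the replicate ranks were 506, 23294 and 325, and in Y43B11AR.3 they were 4782, 265 and 20754. In pigq-1 they were 346 and 330 in replicates 1 and 2, and replicate 3 had no peak. The gene unc-104, whose kinesin carries synaptic vesicle precursors along axons, had ranks of 2518, 1627 and 1551, and C36E8.4 had 2331, 3124 and 3414.

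**Figure D1:**
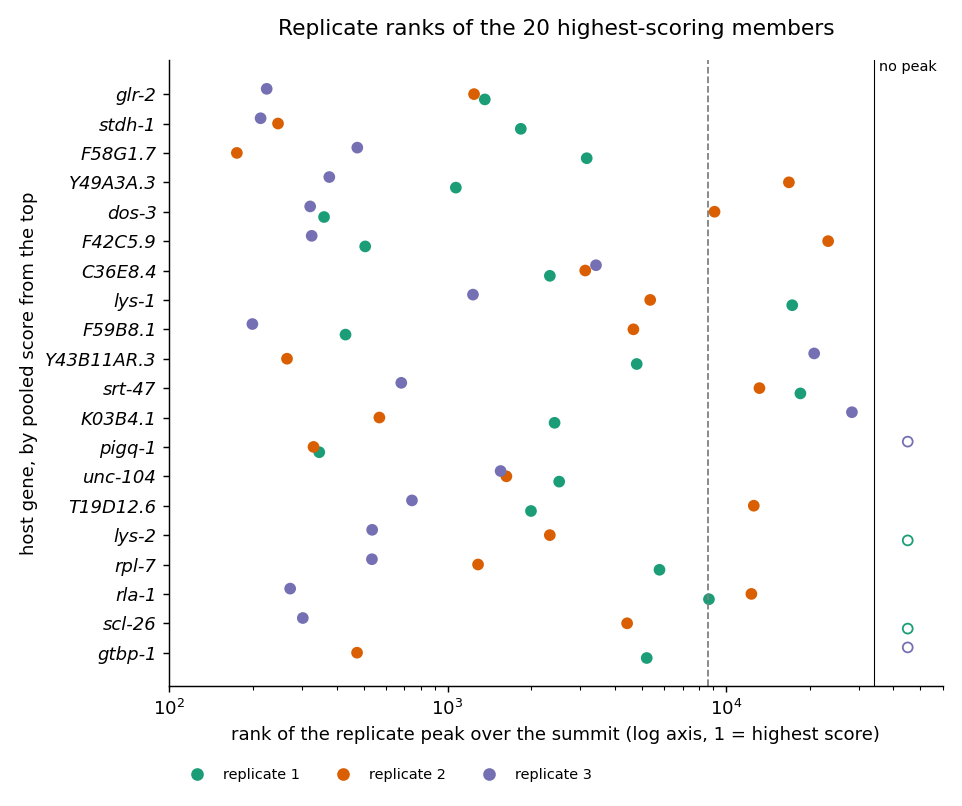
Rank of the replicate peak that covers the summit (x, log axis) for the 20 members with the highest pooled score (y, host gene, highest at the top), 1 point per replicate, with open points where a replicate list has no peak there and a dashed line at rank 8636. The points of 1 gene often lie far apart, and 7 of the 20 genes have all 3 points left of the line.

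Across all members the scores were low and closely spaced. The median pooled score was 13, the middle 50% lay between 12.04 and 14.7, and the range was 11.4 to 35.6. Scores over 20 were held by 36 members and scores under 15 by 998 (77.2%). The other 5842 autosomal peaks had a median of 13.7 and reached 385.4. Introns had a median of 13.1, intergenic peaks 13.4 and promoter peaks 15.2, so members and intron peaks lay close together. Among the 8636 highest-scoring peaks of each replicate list, peaks of the same class had a median that was 97.5%, 96.2% and 94.9% of the median of the other autosomal peaks in replicates 1, 2 and 3. The mean was 96.2% ± 1.30 (SD, n = 3), and the median of the class was lower in 3 of 3 replicates, with p = 0.25 by an exact sign-flip permutation test (two-sided). With 3 replicates that is the smallest p the test can give, so no result here can pass 0.05.

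Coding exon peaks were rare among the strongest peaks and close to their share of the genome among the weakest. Autosomal bases that meet the member rule make up 22.8% of the autosomal genome, 18850149 bases, and are called eligible coding bases below. Only the 3 optimal members were coding exon peaks among the 383 highest autosomal pooled peaks, as many as the optimal list holds in all. They made up 0.783% of these peaks (Wilson 0.267 to 2.28). The share was 9.24% from rank 384 to 1000, 16.9% on to rank 2000, 19.2% on to rank 4000 and 21.7% on to rank 7135. Promoter peaks took the opposite course, from 79.4% of the first range to 19.3% of the last. The replicate lists gave the same order: 18, 24 and 16 of their 383 highest autosomal peaks were in coding exons, a mean of 5.05% ± 1.09 (SD, n = 3), against 23.3% ± 1.72 of all lower peaks. The difference was -18.2 ± 2.36 percentage points, negative in 3 of 3 replicates (p = 0.25, exact sign-flip permutation test, two-sided). In the lowest ranges, beyond rank 16000, the share was 22.5%, 23.8% and 25.3% in replicates 1, 2 and 3, near the share of bases. Replicate 3, the one with a different fragmentation label, had the highest share in every range below the first, and its part in that was not tested.

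**Figure D2:**
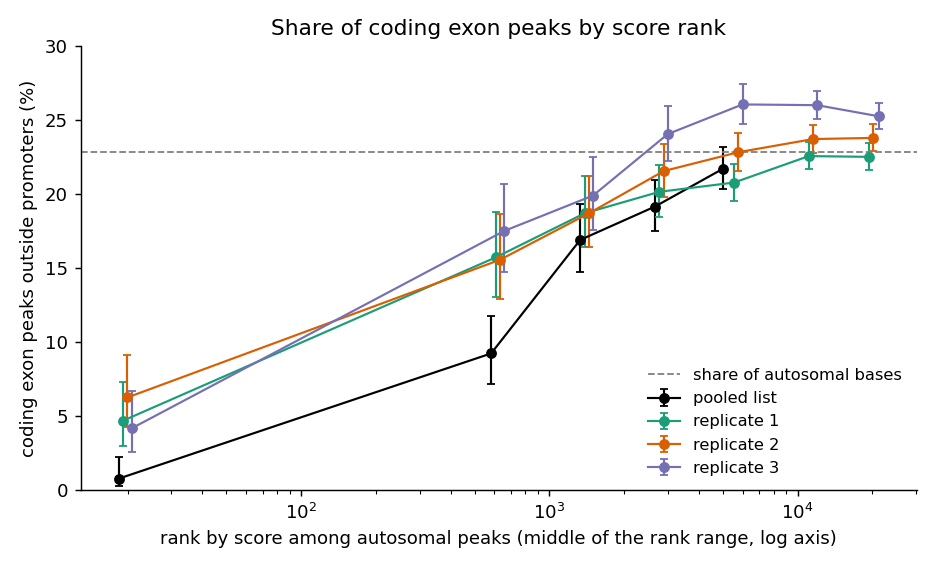
Share of autosomal peaks that are coding exon peaks outside promoters (y, percent, with 95% Wilson intervals) against score rank (x, log axis) in the pooled list and the 3 replicate lists, with a dashed line at 22.8%, the share of eligible coding bases. All 4 lists begin under 7% and come to lie between 21% and 27%.

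Per megabase, coding exons held peaks at a density near that of introns. Members numbered 68.6 per megabase of eligible coding bases (95% exact Poisson interval 64.9 to 72.4, counting error only). Introns outside the promoter window held 66.9 (63.8 to 70.2), intergenic bases 76.2 (72.7 to 79.9), untranslated exons 142 (128 to 157) and the promoter window 163 (155 to 170). The intervals of coding exons and introns overlap, and those of untranslated exons and promoters lie above both.

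Among the highest peaks of each replicate, a smaller share of members than of other peaks was found again. In the 8636 highest peaks, 332 members (25.7%) were recovered in replicate 1, 497 (38.4%) in replicate 2 and 362 (28.0%) in replicate 3. For the other autosomal peaks the shares were 33.5%, 43.2% and 37.5%. The mean difference was -7.36 ± 2.40 percentage points (SD, n = 3), negative in 3 of 3 replicates, with p = 0.25 by the exact sign-flip permutation test (two-sided). The replicate peaks covered 2.62%, 2.70% and 3.43% of eligible coding bases, so members lay under them far more often than a coding base did. The pooled list was made from the same replicates, so this excess is not independent. Over the whole replicate lists, with 30000 peaks each, 50.9%, 70.8% and 54.6% of members were covered and 58.7%, 71.04% and 61.5% of the other peaks, so replicate 2 differed by only -0.27 percentage points. Against other peaks of the same score mix, replicate 2 turned to a difference of 2.70 there, with -4.26 in replicate 1 and -2.73 in replicate 3.

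By score, the difference was largest in the highest quartile, and whether it differs between quartiles was not tested. In the highest quartile of pooled scores, from 16.1 up, members were recovered at 50.3% ± 5.48 and other peaks at 64.8% ± 5.70 (SD, n = 3), lower in 3 of 3 replicates. In the lowest quartile the values were 23.0% ± 8.33 and 22.7% ± 3.72, a difference of 0.27 ± 4.6 percentage points, and in the 2 quartiles between they were -0.69 ± 4.1 and -0.50 ± 5.3. In these 3 quartiles the difference was smaller than its spread between replicates. When the other peaks were weighted to the score mix of the members, the mean difference was -2.41 ± 2.04 percentage points, with -3.30, -0.073 and -3.86 in replicates 1, 2 and 3. The highest quartile is wide, and other peaks in it reach far higher scores than the members do.

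**Figure D3:**
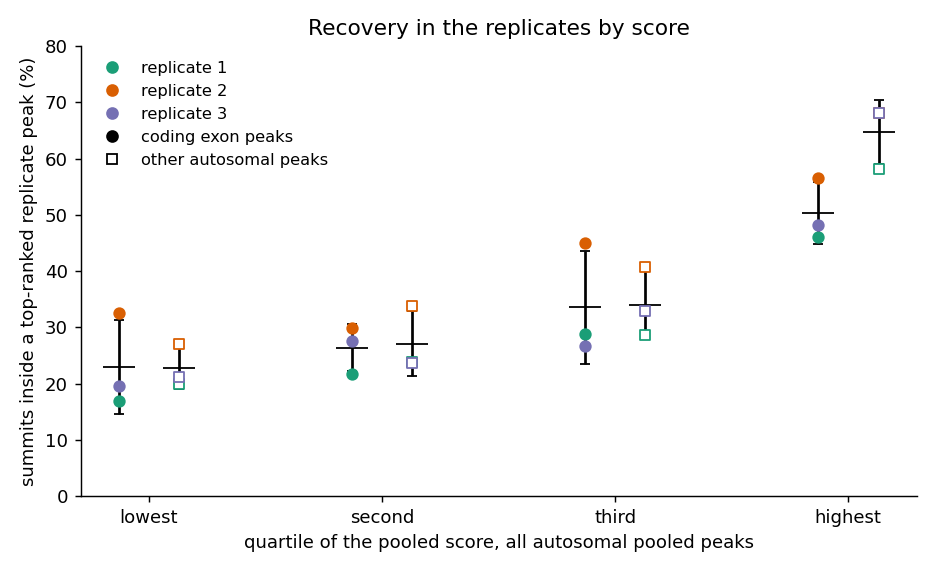
Share of summits inside the 8636 highest peaks of a replicate (y, percent) by quartile of the pooled score (x), for coding exon peaks (filled circles) and other autosomal peaks (open squares), with 1 point per replicate and the mean ± SD over 3 replicates in black. Both sets lie together in the lower 3 quartiles, and in the highest the coding exon peaks lie between 46% and 57% and the others between 58% and 69%.

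Replicates also did not rank the members alike. Over the 419 members covered in both replicates 1 and 2, Spearman's rho of the replicate scores was -0.079, over 326 in replicates 1 and 3 it was 0.019, and over 445 in replicates 2 and 3 it was -0.021. For the other autosomal peaks it was 0.27, 0.35 and 0.30. Within the highest score quartile the members gave -0.012, -0.024 and -0.14 and the others 0.40, 0.43 and 0.38. Pooled scores in that quartile reach 35.6 in members and 385.4 in the others, and the part of this wider range was not tested. Within the lower 3 quartiles both sets gave negative values, from -0.21 to -0.058. All points share the pooled list, whose score comes from the pooled replicates, and peaks are not replicates, so these values are a description.

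Full agreement between replicates was rare. The summits of 20 members (1.55%) lay in the top-ranked peaks of all 3 replicates, where 6.97% of all autosomal pooled peaks did. By class the share was 17.2% in the promoter window, 5.59% in untranslated exons, 4.20% between protein-coding genes and 2.41% in introns. Members thus lay closest to intron peaks. A further 195 members were top-ranked in 2 replicates, 741 in 1 and 337 in none. In the full lists 176 were covered in 3, 662 in 2, 427 in 1 and 28 in none. The 20, chosen after their values were seen, had scores from 13.97 to 35.6 with a median of 20.4. Besides glr-2, stdh-1, F58G1.7, C36E8.4, F59B8.1, unc-104 and rpl-7 they were in F32D8.2, C34E10.10, the ADP/ATP carrier gene ant-1.1, F46C5.1, T07A9.14, the nuclease subunit gene slx-1, T28C6.5, the adaptor complex gene apb-3, lmd-2, the neuronal contactin gene rig-6, F17C11.13, the glutamine synthetase gene gln-3 and slcr-46.2. The hosts of 5 of the 20 had a pooled peak in their own promoter window, and 2 of these, rpl-7 and ant-1.1, an optimal one. The members in these 2 genes lay 872 and 530 bp from the nearest optimal summit.

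Along the coding sequence the members were spread almost evenly, with the middle slightly below its share of bases. The host transcript was the one with the longest coding sequence over the summit. The first tercile of the spliced coding sequence held 399 members, 30.9% (Wilson 28.4 to 33.4), and 29.5% of eligible coding bases. The middle held 429 (33.2%, Wilson 30.7 to 35.79) with 35.84% of bases, and the last 465 (35.96%) with 34.7%. In the coding exon peaks of the replicates, taken from their 8636 highest peaks, the share in the first tercile was 29.3%, 30.7% and 28.3%, a mean of 29.4% ± 1.23 (SD, n = 3), which differs from the share of bases by less than that spread. By deciles, the density ran from 61.7 members per megabase in the fifth to 85.7 (Poisson 72.99 to 100.04) in the last. The last decile held 12.1% ± 1.06 of the replicate peaks and 9.96% of the bases, above it in 3 of 3 replicates.

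Last coding exons held more members per base than internal ones, while the interval of first coding exons overlapped that of internal ones. Last coding exons held 84.3 per megabase (74.1 to 95.5) and first coding exons 83.4 (68.03 to 101.28), and internal exons 64.4 (60.4 to 68.7). In the replicate peaks, internal exons held 74.0% ± 1.01 of them and 77.2% of eligible coding bases (SD, n = 3). Last exons held 18.04% ± 0.987 and 15.6%, and first exons 7.60% ± 0.781 and 6.49%. Each class lay on its own side of its share of bases in 3 of 3 replicates. Within 100 bp of the coding end the members had a density of 89.4 per megabase (74.3 to 107), and beyond 1000 bp, where 680 of them lay, 64.4 (59.7 to 69.5). In the replicates the first of these gave 9.14%, 6.48% and 9.41% of peaks against 7.30% of bases, so replicate 2 lay on the other side. Between the promoter window and 250 bp downstream of the nearest start the density was 80.6 (66.9 to 96.1). By exon length the intervals overlap: coding exons under 100 bp held 79.3 members per megabase (64.6 to 96.3) and exons of 1000 bp or more held 65.7 (53.2 to 80.3). A median of 75.9% of the bases of a member peak were coding, and 212 members were coding throughout.

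Members were denser in the centres of the chromosomes. The central tercile of the autosomes held 86.3 members per megabase of eligible coding bases (79.8 to 93.1) and the outer parts 56.5 (52.2 to 61.1). The order held on every autosome, with 82.9 and 59.9 on I, 91.7 and 60.8 on II, 86.6 and 58.3 on III, 84.0 and 55.1 on IV and 86.4 and 50.8 on V. In the replicates 52.2%, 47.6% and 49.2% of coding exon peaks were central, against 40.6% of eligible coding bases, an excess of 9.10 ± 2.34 percentage points (SD, n = 3), positive in 3 of 3 (p = 0.25, exact sign-flip permutation test, two-sided). Central regions of worm autosomes are known to be richer in broadly expressed genes, while the arms hold more repeats and recombine more. The ratio of central to outer density was 1.53 for members, 1.94 for introns and 1.54 between protein-coding genes. It was 1.43 in untranslated exons and 1.21 in the promoter window, so coding exons did not stand apart. Between chromosomes the members ran from 64.5 per megabase on V to 72.8 on II, with overlapping intervals.

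**Figure D4:**
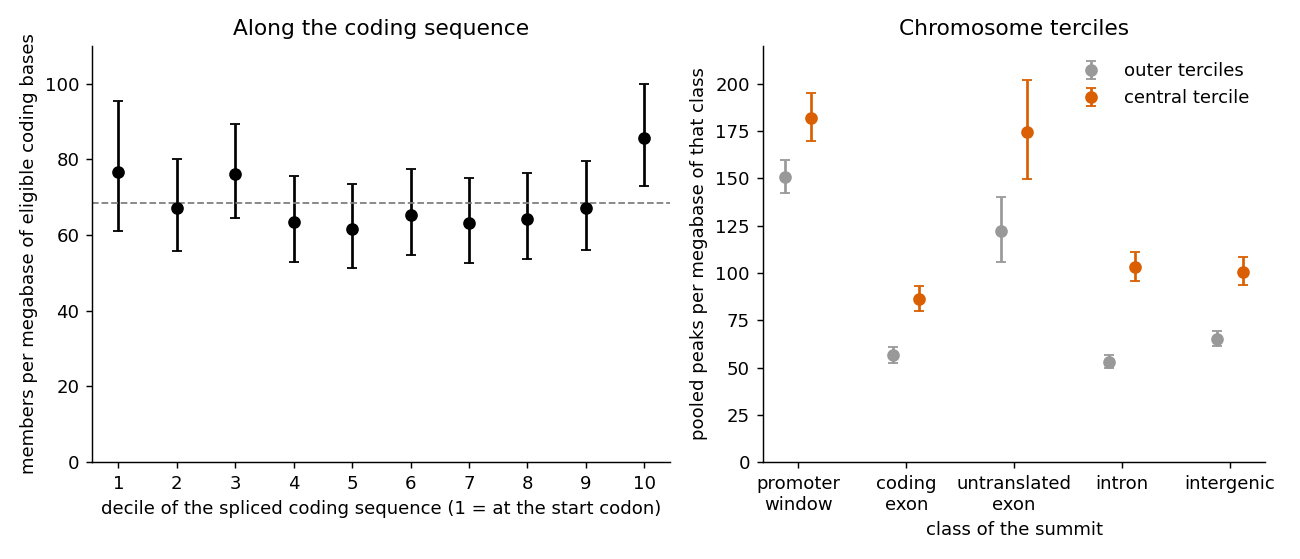
Left, members per megabase of eligible coding bases (y, with 95% Poisson intervals) in each decile of the spliced coding sequence (x), with a dashed line at the mean of 68.6. Right, pooled peaks per megabase (y, with 95% Poisson intervals) in the outer parts and the central tercile of the autosomes for each class of summit (x); the intervals of the first 9 deciles include the line and that of the last lies above it, and each class is denser in the centre.

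Host genes were mostly hit once. Of 17242 autosomal protein-coding genes, 1187 (6.88%) held a member: 1098 held 1, 74 held 2, 13 held 3 and 2 held 4. Hosts were long, with a median coding length of 1449 bp against 987 bp for all, so densities are given per coding base. The 2 genes with 4 members were fasn-1, which encodes fatty acid synthase, and dhc-1, which encodes the dynein heavy chain. Their coding sequences are 7839 and 13704 bp long, and the highest of their 8 scores was 15.04. The kinase and lipid genes that follow were next by summed score: mak-1 and mnk-1, both of which encode MAP kinase-activated kinases, and lpin-1, which encodes lipin, a phosphatidate phosphatase. The gene mak-1 held its 3 members in a coding sequence of 1563 bp, with scores of 22.04, 19.001 and 16.9, or 2.47 per kilobase of eligible coding bases, and mnk-1 had 1.35 per kilobase and lpin-1 1.26. Over all genes the density was 6.86, but per 100 kb and not per kilobase. These genes were named for holding the most members, so a density above that of all genes follows from the choice. The 3 members of mak-1 differed in their replicates: replicate 1 had no peak at the first, and replicate 2 none at the second.

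Between genes with and without a bound promoter, the density of members did not differ beyond counting error. Genes with an optimal peak in their own promoter window held 67.9 members per megabase (46.1 to 96.3), genes with only a weaker pooled promoter peak 72.5 (62.2 to 84.2), and genes with none 68.02 (64.04 to 72.2). The 3 intervals overlap. In all, 187 hosts (15.8%) had a pooled promoter peak, against 13.04% of all genes, and 26 (2.19%) an optimal one, against 2.18%. Close to optimal summits the count was small: 17 of the 1289 members not past the threshold (1.32%, Wilson 0.825 to 2.10) lay within 1000 bp of one, where 0.958% of eligible coding bases do.

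In the pooled list, ribosomal protein genes were the gene list with the highest density of members. These genes encode the proteins of the cytoplasmic ribosome, and 34 of the 76 on the list had an optimal peak in their promoter window. They held 8 members in 22.2 kb of eligible coding bases, 36.1 per 100 kb (Poisson 15.6 to 71.1), against 6.86 (6.49 to 7.24) for all autosomal protein-coding genes. In the replicates the list had 4, 3 and 9 coding exon peaks, or 18.05, 13.5 and 40.6 per 100 kb, above the 6.91, 7.53 and 8.80 of all genes in 3 of 3. In replicate 2, 4 other lists were denser: histones with 19.6, nuclear pore with 17.5, chaperones with 14.9 and germline regulators with 14.7 per 100 kb. The members were in rpl-7 (score 22.8), rpl-3 (19.7), rps-8 (16.1), rpl-6 (13.2), rps-13 (13.2), rpl-16 (12.6), rps-27 (11.8) and rps-0 (11.5). Of these genes 4 had an optimal promoter peak, and the nearest optimal summit was 872 bp from the member in rpl-7, 919 bp in rpl-3, 559 bp in rps-13 and 1016 bp in rps-0. The scores of rpl-3 in the replicates show the unevenness again, with no peak in replicate 1 and ranks of 7523 and 674 in replicates 2 and 3. The stalk protein gene rla-1 is not on the list.

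The other lists of genes for the common machinery of the cell lay closer to the background. Chaperone genes held 9 members, 14.9 per 100 kb (6.80 to 28.2), among them cct-8 (16.5), a chaperonin subunit, and dnj-5 and dnj-8 (13.6 and 13.5), J-domain proteins. Their replicate densities were 9.92, 14.9 and 16.5, above all genes in 3 of 3. Nuclear pore and transport genes held 11 members, 12.1 per 100 kb (6.02 to 21.6), led by npp-21 (18.9), a nucleoporin of the pore basket, npp-2 (17.1) and the exportin gene xpo-3 (16.8), and replicate 1 lay below all genes with 5.48. Splicing factors held 6 (11.5 per 100 kb, 4.21 to 24.98), with rsp-7 (16.7), rsp-6 (15.5) and hrpk-2 (15.2). RNA polymerase and Mediator genes held 5, with rpc-1, rpoa-1 and mdt-4, and proteasome genes held 3, in rpn-5, pas-6 and pas-1. Translation factors held 1 member, in the elongation factor gene eef-1A.1 (15.1), 2.48 per 100 kb, and aminoacyl-tRNA synthetases held 2, in gars-1 and lars-2. Mitochondrial genes held 4, among them mrpl-53, mrpl-39 and atp-1. The splicing factor list and the RNA polymerase and Mediator list also lay above all genes in 3 of 3 replicates. Proteasome genes lay below in replicate 1 and mitochondrial genes in replicate 3. Translation factors and aminoacyl-tRNA synthetases lay below in replicates 1 and 2. Apart from the ribosomal proteins, the interval of each of these lists includes the value of all genes.

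In the pooled list, gene lists tied to the known biology of LIN-15B had densities whose intervals include that of all genes. The synMuv, DREAM and chromatin list held 9 members in 9 of 43 genes, 8.14 per 100 kb (3.72 to 15.5), with lin-61 (13.8), a synMuv B protein with malignant brain tumour repeats, the methyltransferase gene set-17 (13.8) and let-418 (12.6), which encodes a Mi-2 remodeller. In the replicates the list had 8.14, 0.905 and 10.9 coding exon peaks per 100 kb, so replicate 2 lay below all genes and the others above. The member of let-418 had no peak in any replicate list. Germline regulators held 4 members, among them gld-2 (14.6), a poly(A) polymerase, the Notch receptor gene glp-1 (14.4) and spn-4 (13.2), 7.36 per 100 kb (2.00 to 18.8). In the replicates this list had 4, 8 and 10 coding exon peaks, 7.36, 14.7 and 18.4 per 100 kb, above all genes in 3 of 3. Meiotic chromosome genes held 1, in syp-2 of the synaptonemal complex, 1.65 per 100 kb (0.0419 to 9.22). The replicate densities of the meiotic list were 4.96, 3.31 and 6.62 per 100 kb, below all genes in 3 of 3. Small RNA genes held 6, with prg-1, ppw-2 and rde-1, which encode Argonaute proteins. Cell cycle genes held 8, led by mix-1 (20.04), a subunit of condensin and of the dosage compensation complex, with rnr-1 and mcm-7 after it. The small RNA and cell cycle lists lay below all genes in replicates 1 and 2 and above in replicate 3. Linker histone gene hil-5 (19.6) was the single member among 54 histone genes. The replicates had 1, 2 and 2 coding exon peaks in the histone list, per 100 kb above all genes in 3 of 3.

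Most lists of genes of differentiated tissues had a lower pooled density than all genes, and 1 a higher one. Apart from the homeobox list, the interval of each list includes the 6.86 per 100 kb of all genes. Collagen, nuclear hormone receptor and homeobox genes lay below all genes in 3 of 3 replicates, and muscle genes in replicates 1 and 2. Neuronal genes lay below only in replicate 2, and chemoreceptor genes in replicates 2 and 3. Chemoreceptor genes held 66 members in 63 of 1320 genes, 5.72 per 100 kb (4.42 to 7.28), led by srt-47 (23.6), srr-1 (20.2) and str-196 (17.6). Their replicate densities were 7.54, 7.19 and 4.07, so replicate 3 lay lower than the others while its density over all genes was the highest, at 8.80. Collagen and cuticle genes held 10, with col-42 (21.2), bli-1 (16.5) and col-130 (16.5), 5.74 per 100 kb. The list labelled basement membrane and very large matrix proteins held 18 in 9 genes, with noah-2 (16.9), lam-3 (14.3) and vab-10 (14.1). This label is loose and does not describe every gene on the list, vab-10 among them. The list had a density of 9.08 per 100 kb (5.38 to 14.3), an interval that includes 6.86. Its replicates gave 7.06, 8.07 and 10.1, above all genes in 3 of 3 by 0.15, 0.54 and 1.29. Muscle genes held 7, with the giant kinase gene unc-22 (15.2), ttn-1 and atn-1 (both 13.3), and neuronal genes 8, with unc-104 (23.1), rpm-1 (14.8) and unc-70 (12.8). In replicate 3 the muscle list had 23 coding exon peaks, 12.6 per 100 kb, against 3.83 and 4.92 in replicates 1 and 2. Nuclear hormone receptor genes held 14, with nhr-21 (19.8), nhr-55 (16.8) and nhr-111 (15.7). The homeobox list had 0 members in 60 genes (a 95% upper bound of 6.80 per 100 kb), and the replicates had 2 each there. Vitellogenin and major sperm protein genes had 0, in 4.86 and 7.17 kb of eligible coding bases.

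**Figure D5:**
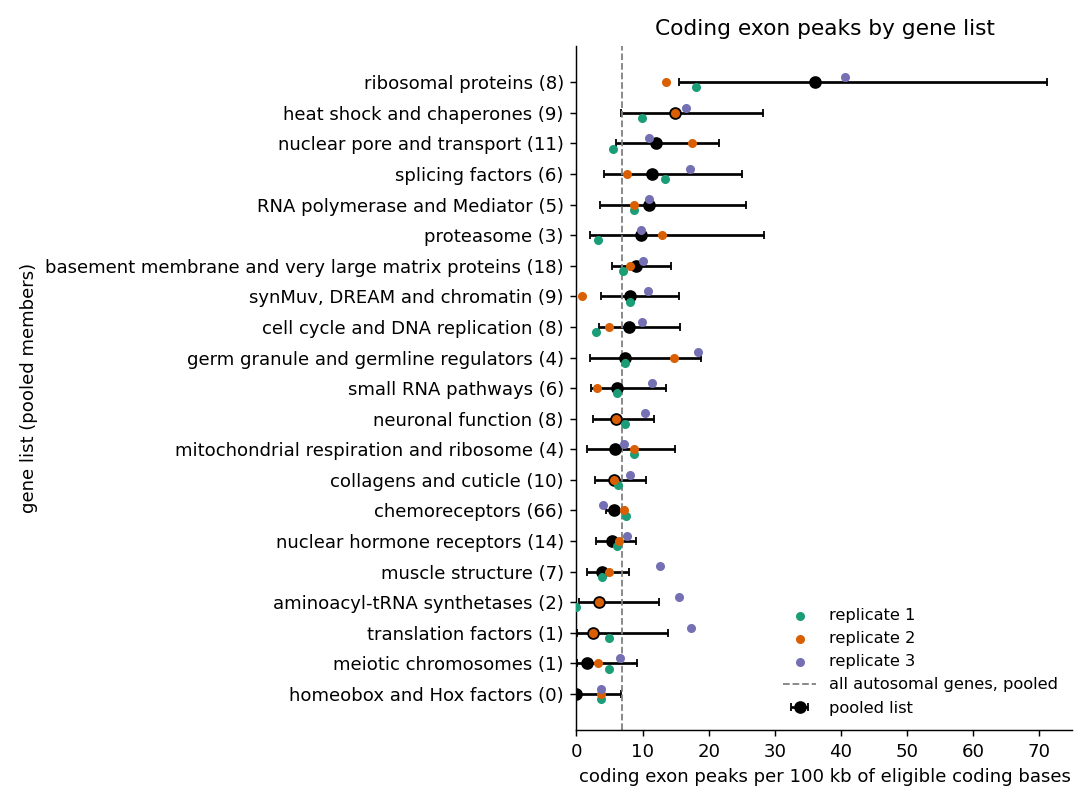
Coding exon peaks per 100 kb of eligible coding bases (x) in the gene lists with over 20 kb (y, number of pooled members in brackets), with the pooled list and its 95% Poisson interval in black, the replicates in colour and a dashed line at 6.86 for all autosomal genes. Ribosomal proteins lie farthest right in the pooled list, and most other intervals cross the line.

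The bases around the summits looked like other coding bases. In windows of 100 bp to each side of the summit the mean G+C content of members was 39.7% ± 5.81 (SD over 1293 windows), against 40.05% for windows centred on all eligible coding bases. In the replicates it was 38.6%, 39.6% and 40.7%, a mean difference of -0.43 ± 1.06 percentage points (SD, n = 3) with p = 0.75 by the exact sign-flip permutation test (two-sided). Windows of intron peaks had 35.3% and windows of promoter peaks 37.4%. Replicate 3 was the only replicate above the coding mean, and 5.07% of its coding exon peaks had windows of 50 to 55% G+C against 2.15% in replicate 1. Whether its preparation plays a part was not tested.

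Motifs of DREAM sites, the E2F element and TTTGAA, were found at shares near those of coding sequence at large. Matches on both strands were counted in the same windows and in 93703 windows of equal length tiled over eligible coding bases. An E2F element was in 59 of 1293 member windows, 4.56% (Wilson 3.55 to 5.84), against 4.66% of tiled windows and 11.9% of promoter peaks. TTTGAA was in 37.5% of members, 37.2% of tiled windows and 44.7% of promoter peaks. CGCG, which some E2F elements contain, was in 14.2%, 16% and 39.9%, and GAGAGA in 9.51%, 10.1% and 18.6%. TGATAA was in 18.6%, 18.04% and 17.9%, CCGGAA in 7.73%, 8.44% and 5.72% and CACGTG in 4.41%, 4.80% and 3.65%. CG was in 99.5% of members and 99.7% of tiled windows. CAACAA was in 25.9% of members (23.6 to 28.4) and 22.01% of tiled windows, while the replicates had 21.97%, 24.1% and 23.0%. GAAGAA was in 34.6% (32.0 to 37.2) and 31.8%, and in 32.7%, 34.7% and 35.3% of the replicate peaks, above the tiled share in 3 of 3. A letter match says nothing of binding.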

How the data were processed

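LIN-15B-GFP ChIP-seq peak lists of 4 samples (3 biological replicates) were analysed on ce11. Each deposited peak carries a score, the signal value of the authors, called against a control alignment per the deposited descriptions, for each replicate (30000 peaks), for their pool (8636) and for the optimal list (383). For the aligner, caller, versions and IDR cutoff, the sources used here give none. The lists hold no counts, so depth is unknown and its precision cannot be stated. Lists on ce10 were not used.

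Summits were placed on Ensembl release 115 (WBcel235). Densities are per eligible coding base, with 95% Poisson or Wilson intervals for counting error. Replicate differences were tested by exact sign-flip permutation over 3 lists, and scripts were tested on simulated data. The replicates compared are labelled biological. When all 3 differences share a sign, the exact sign-flip permutation test gives its smallest p-value, whatever their spread. The 24 gene lists hold 5 symbols not matched in the annotation. Named genes are hosts of the optimal members, of the 20 highest-scoring members, of the 5 genes with most members and up to 3 per list. Members and lists were chosen with earlier results of these data known. Python 3.11.15, numpy 2.4.6, scipy 1.17.1 and pandas 2.3.3 were used. Alternatives were other promoter windows, stricter membership, each replicate left out, other ranks, overlaps and sequence windows.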

Additional observations from a re-analysis of the deposited data

How the results depend on the processing

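The share of coding exon peaks by rank stayed negative in all 7 of its alternatives and replicate recovery in all 13, but their sizes changed beyond the spread between replicates: the first ran from -19.5 to -4.08 percentage points, closest to 0 where the most peaks were counted as highest, and the second from -10.2 to -2.41. For the results with no test, a value that stayed within its interval or a count within 1.5 times was taken as kept. Over all 61 alternatives, 10 of these values moved further and 2 reversed. Without each replicate in turn, keeping only members covered in both others, the count was 326 to 445, the median score difference -2.10 to -1.71, 3 to 4 members were past the threshold, the first tercile held 30.1% to 32.2%, and the G+C difference was -0.54 to 0.10. The G+C difference also reversed, to 0.066, with at least 50% of the peak coding. The median score difference was -0.92 among the upper 50 percent of peaks by score. The first tercile held 26.3% of members with the wide promoter window (1000 bp upstream to 200 bp downstream), 36.2% with the narrow one (200 to 0 bp) and 28.2% by genomic span, with 26.6% and 33.3% of eligible bases for the 2 windows. Fewer members remain by construction when both other replicates must hold a peak; the other causes were not tested. No pairing between groups was possible because the samples form a single group. Classes of peaks were compared within each replicate list, so those differences are paired by replicate. Unknown depth limits every comparison of replicates.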
